A study of Mus musculus with 2 samples.

Results

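Chromatin accessibility was examined at the promoters of 39 mouse genes that encode the intraflagellar transport (IFT) machinery, the BBSome and the motors that move them. The genes were taken by name, and their promoters were the regions called as peaks in both libraries within 500 bp of a start site of a protein-coding transcript. All 39 genes had at least 1 such region, 43 regions in all, out of 15877 protein-coding genes with 18975 shared promoter regions in the series. The list held 6 genes of IFT-A, 10 of IFT-B1, 6 of IFT-B2, 9 of the BBSome group, 4 of dynein-2 and 4 of kinesin-2. The BBSome group counts the GTPase Arl6 with the subunits of the complex.

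The series held 1 single-cell ATAC library of Control and 1 of MOF cKO back skin at E16.5. MOF, encoded by Kat8, is the enzyme that acetylates histone H4 at lysine 16. The MOF cKO animals carried MOF fl/fl and the Krt14-Cre transgene (labelled K14Cre), which acts in epithelial cells of the skin and leaves the dermal cells of the same embryo without Cre, whereas the Control is labelled by that word alone, and its alleles are not given in the labels. The newborn controls of the same study are described as wildtype or heterozygous littermates. All mice had a mixed C57Bl/6J and CD-1 background, and cells positive and negative for the K14-H2BGFP reporter were sorted and recombined. The labels give a mix of 5 parts positive to 1 part negative, and other statements of the study give other ratios. The libraries came from 1 pair of samples, and how many embryos entered each is not given in the sources used here.

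The Control file held 2541 barcodes with 169641002 cut sites and the MOF cKO file 4348 barcodes with 324310197, at medians of 62973 and 66239.5 cut sites per barcode. From marker promoters, 1391 Control and 2640 MOF cKO cells were called epithelial-like and 658 and 1254 fibroblast-like. Most epithelial-like cells of the libraries lay in different clusters, 1, 3 and 11 for Control and 0, 2, 5, 14 and 15 for MOF cKO. Each of these clusters had 8 to 11 of 13 epithelial markers raised, and none but clusters 11 (5 of 9) and 14 (1 of 9) had a fibroblast marker raised. Clusters 11 and 14 had median doublet scores of 0.86 and 0.9, against 0.12 to 0.36 in the other epithelial-like clusters, and 21 barcodes occurred in both libraries. With 1 library per genotype there is no replicate, so no p-value is given, and every interval is a 95% interval for counting error alone.

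A primary cilium is a microtubule-based antenna that most skin cells can carry, and Hedgehog signalling in the developing hair follicle passes through it. Because no protein is made inside the cilium, trains of IFT particles carry cargo along it. Kinesin-2 drives the trains from base to tip with IFT-B as the main scaffold, dynein-2 returns them with IFT-A, and the BBSome rides on the trains and links membrane receptors to them. Many promoters of such genes carry an X-box, the inverted repeat bound by RFX transcription factors.

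The letters of the X-box were looked for in RefSeq promoter windows (GRCm38.p6, 250 bases before to 50 after the start), because these letters are the sequence feature best known at ciliary genes. The pattern was GTTGCCNNGGCAAC, which reads the same on both strands, with up to 2 mismatches allowed at the 12 fixed bases. Of the 39 members 34 had a window, and 9 of these held a match. That was 26.5% (exact interval 12.9 to 44.4%), against 588 of 17492 genes or 3.36%. A gene was counted once over all its windows, and shares of all windows below are shares of the 17492 genes. These 9 genes held 10 matches, 2 of them in Ift22, and the matches are shown 5′ to 3′ on the strand of the gene, the 14 bases of the match in capitals, in the order of the epithelial change from the most negative.
Bbs1: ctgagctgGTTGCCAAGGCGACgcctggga
Ift22, first match: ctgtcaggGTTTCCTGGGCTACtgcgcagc
Ift22, second match: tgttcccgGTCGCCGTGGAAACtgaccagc
Ttc26: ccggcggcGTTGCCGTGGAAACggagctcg
Bbs4: ctcagctgGTCGCCCGGGAAACggtcggct
Ift140: tggggcgtGTTGTGACGGCAACctcgcgcc
Ift57: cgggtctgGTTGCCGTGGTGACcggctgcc
Wdr34: gcgggaccGTCGCCATGGCAATgtgcgcgt
Traf3ip1: gcgcgtccGTTGCCAAGGCCGCgcggccct
Bbs7: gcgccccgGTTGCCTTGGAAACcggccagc

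The coordinates are those of the 14 bases. The Bbs1 match lay at chr19:4906613-4906626 on the minus strand with its first base at position 1 from the RefSeq start, and differed from the pattern at 1 base. The Ttc26 match at chr6:38381491-38381504 (plus strand, position -33) and the Bbs7 match at chr3:36613497-36613510 (minus strand, position -121) also had 1 mismatch. The other 7 had 2 mismatches, with Ift22 at chr5:136908087-136908100 (plus strand, position -63) and again at chr5:136908117-136908130 (position -33), Bbs4 at chr9:59353472-59353485 (minus strand, position 23), Ift140 at chr17:25015969-25015982 (plus strand, position -117), Ift57 at chr16:49699207-49699220 (plus strand, position -87), Wdr34 at chr2:30048862-30048875 (minus strand, position 4) and Traf3ip1 at chr1:91494589-91494602 (plus strand, position -79). None of the 34 members held the pattern without mismatch. Only 19 of 17492 genes (0.109%) did, so that absence says nothing about the members. Allowing 3 mismatches gave 13 members (38.2%) against 16.7% of all windows. Ift122, Ttc30b, Ift81, Ift80 and Dync2li1 were not searched.

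Shorter letters were counted on both strands of the same windows, and none of these words contains another. The ETS letters CCGGAAG were in 7 members (20.6%, exact interval 8.70 to 37.9%) against 12.9% of all windows. The CCAAT box was in 20 (58.8%, 40.7 to 75.4%) against 42.3%, and the GC box GGGCGG in 21 (61.8%, 43.6 to 77.8%) against 49.2%. Each of these intervals included the share of all windows. The members' windows had a median GC content of 58.0% against 56.3% for all windows, and a median observed over expected CpG ratio of 0.777 against 0.564. The 250 bases before the start follow for 3 members whose windows hold no exon before the start, Ift22 (one of the members with the greatest loss), Ift74 (an example gene of the study) and Bbs5 (the only member that was not lower in MOF cKO with the scaling used here). Capitals again mark the X-box letters, which Ift74 and Bbs5 lacked at up to 2 mismatches. The study names Ift74 among ciliary genes with RFX2 and MOF bound at the promoter in newborn epidermal cells. Lack of these letters is thus not lack of RFX2 binding.
Ift22: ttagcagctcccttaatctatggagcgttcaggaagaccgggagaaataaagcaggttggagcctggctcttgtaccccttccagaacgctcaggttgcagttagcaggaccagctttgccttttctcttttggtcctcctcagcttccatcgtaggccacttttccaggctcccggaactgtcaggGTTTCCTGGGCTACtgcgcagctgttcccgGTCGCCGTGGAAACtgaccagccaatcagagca
Ift74: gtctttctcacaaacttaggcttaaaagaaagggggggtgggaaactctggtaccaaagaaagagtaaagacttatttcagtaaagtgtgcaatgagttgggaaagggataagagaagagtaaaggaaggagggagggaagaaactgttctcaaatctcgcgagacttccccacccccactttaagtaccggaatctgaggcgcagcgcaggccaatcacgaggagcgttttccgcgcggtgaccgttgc
Bbs5: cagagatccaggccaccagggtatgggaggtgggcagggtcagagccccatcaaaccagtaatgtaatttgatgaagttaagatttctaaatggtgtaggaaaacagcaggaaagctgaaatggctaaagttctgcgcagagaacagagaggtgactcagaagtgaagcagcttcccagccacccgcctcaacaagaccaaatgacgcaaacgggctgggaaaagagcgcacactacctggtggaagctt

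These stretches lie at chr5:136907900-136908149, chr4:94614241-94614490 and chr2:69646921-69647170, all on the plus strand of GRCm38.p6.

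Accessibility is given as CPM, the cut sites scaled to the total in the shared regions of the same cell class and library, and change as log2 of MOF cKO over Control. In Control epithelial-like cells the member promoters held between 6.74 CPM per kb of region (Ift22) and 89.8 (Bbip1), with a median of 27.9, where the median over all genes was 20.7. The 3 lowest were Ift22, Bbs1 at 7.04 and Ift88 at 11.0 CPM per kb, and the 3 highest after Bbip1 were Ift122 at 79.2, Ift27 at 78.2 and Hspb11 at 71.3. Ift22 and Bbs1 did not differ beyond counting error in CPM, at 7.13 (6.46 to 7.85) and 6.30 (5.67 to 6.98), nor did Ift122 (71.4 to 75.8 CPM) and Ift27 (70.0 to 74.4 CPM). In MOF cKO epithelial-like cells the levels ran from 3.12 (Ift22) to 68.3 CPM per kb (Bbip1), so both ends of this order were held by the same genes. The lowest place of Ift22 in Control depends on the width used, since Bbs1 was below it in CPM. Both libraries were divided by the merged width of 1058 bp at Ift22, where the Control peak was 899 bp wide.

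**Figure D1:**
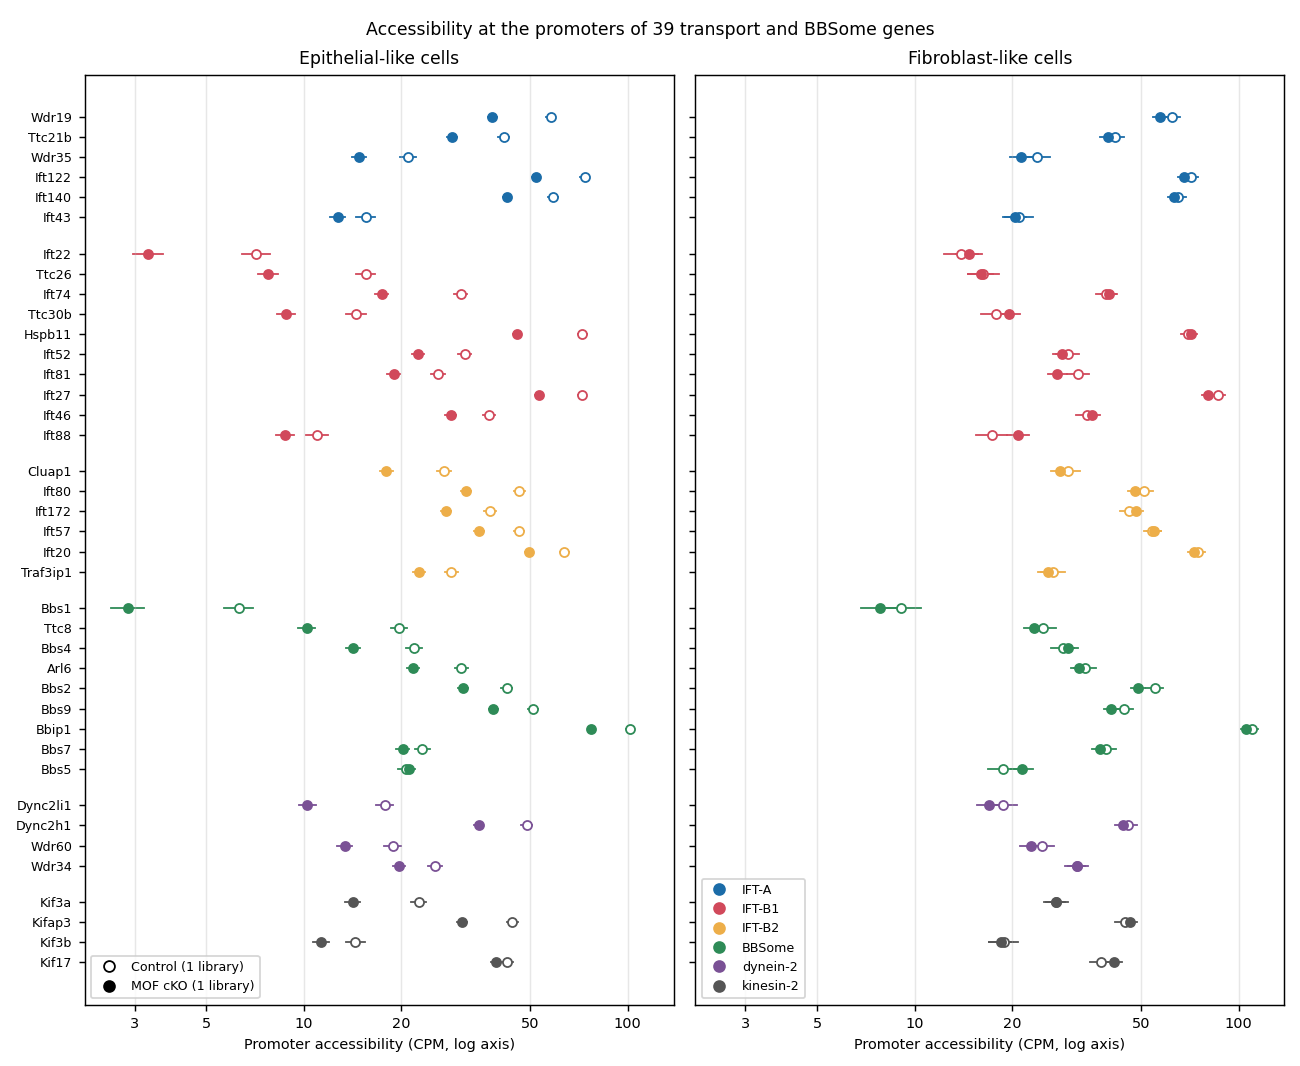
Promoter accessibility (CPM, log axis) of the 39 genes by sub-complex in epithelial-like (left) and fibroblast-like cells (right). Open points are the Control and filled points the MOF cKO library, lines are 95% Poisson intervals, and in epithelial-like cells the filled point lies left of the open one for 38 of 39 genes.

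In epithelial-like cells the member promoters were less accessible in the MOF cKO library. Summed over the 43 regions, the members held 1386 CPM in Control and 998 CPM in MOF cKO, a change of -0.47 (-0.49 to -0.46). The median member change was -0.49, beside -0.42 for all 15877 genes, and 38 of 39 members were lower, where 85.8% of all genes were. The interval lay wholly below 0 for the same number, 38 of 39, beside 78.5% of all genes. At least 1.5-fold lower were 12 of 39 members (30.8%), beside 18.5% of all genes, and at least 2-fold lower were 3, beside 2.49%. No member was at least 1.5-fold higher, beside 4.33% of all genes, or had an interval wholly above 0, beside 9.16%. The 12 genes were Bbs1, Ift22, Ttc26, Ttc8, Ift74, Dync2li1, Ttc30b, Kif3a, Hspb11, Bbs4, Wdr19 and Cluap1. Just inside the 1.5-fold line was Cluap1 at -0.60, and just outside it Ift80 at -0.54.

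Most of this shift was shared with promoters in general, and its size moved with the scaling. Promoter regions of all genes took 37.9% of the cut sites in shared regions of Control and 28.8% of those of MOF cKO epithelial-like cells. Within promoter cut sites alone, the members held 0.366% (0.363 to 0.369%) in Control and 0.347% (0.345 to 0.349%) in MOF cKO. When changes were scaled to promoter cut sites, the member median was -0.09 beside -0.02 for all genes, 28 of 39 members were lower beside 53.7% of all genes, and 3 were at least 1.5-fold lower beside 2.64%. Scaled to the cut sites in each library's own peaks, 26 members were at least 1.5-fold lower beside 45.1% of all genes. A scaling adds the same constant to the change of every gene, so sub-complexes are given below against the median of all genes too, from which the member median lay -0.08. In cells thinned to 5000 cut sites that distance was -0.13. Of the 39 members 26 lay below the all-gene median in the full data.

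**Figure D2:**
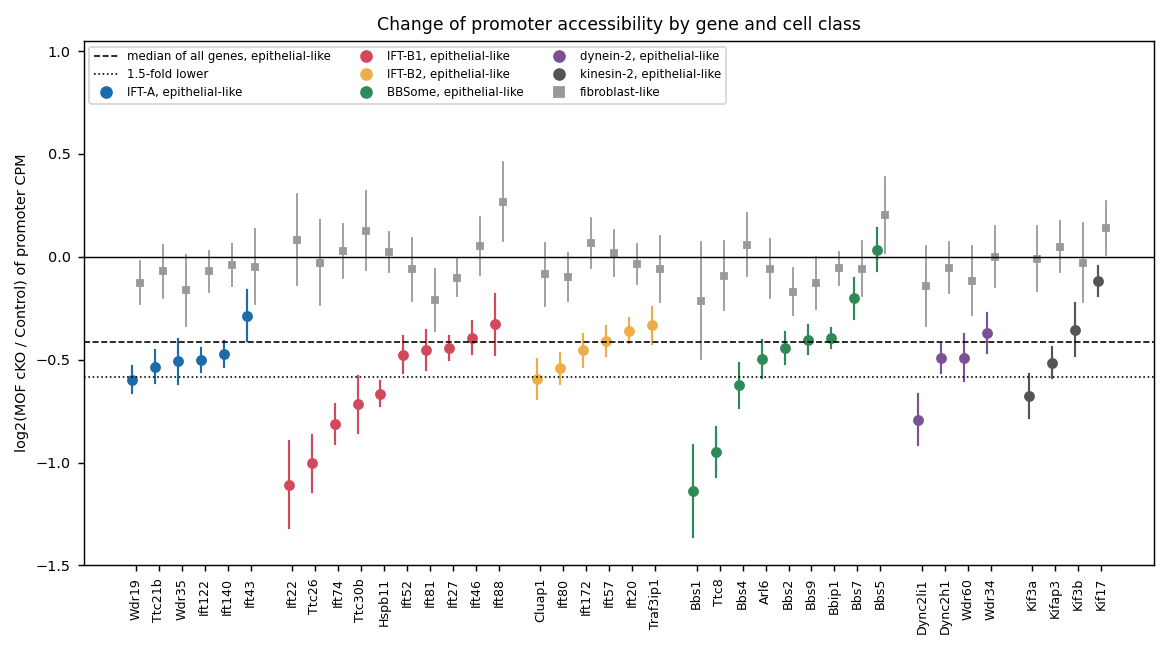
Change of promoter accessibility, log2(MOF cKO/Control), for each gene, with 95% counting intervals. Coloured circles are epithelial-like and grey squares fibroblast-like cells, the dashed line is the all-gene median of epithelial-like cells (-0.42) and the dotted line marks 1.5-fold lower. The deepest losses lie in IFT-B1 and the BBSome, and the grey squares lie near 0.

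IFT-B1, the core of the anterograde train, had the lowest median of the 6 groups, -0.57 (-0.16 against all genes), with 5 of 10 members at least 1.5-fold lower, beside 18.5% of all genes. Without genes whose region also serves another gene it was at -0.07 against all genes, and IFT-A (-0.12), kinesin-2 (-0.11) and dynein-2 (-0.09) were then lower. Ift22, which encodes a small GTPase-like subunit, held 7.13 CPM (6.46 to 7.85) in Control and 3.31 CPM (2.96 to 3.68) in MOF cKO epithelial-like cells. Its change of -1.11 (-1.32 to -0.90) was the lowest of the group in the full data and stood at the 1.66th percentile of all genes. With every cell thinned to 5000 cut sites Ift22 had 37 and 35 cut sites and a change of -0.85 (-1.88 to 0.17). That was above Ttc30b (-0.96), Ift74 (-0.94) and Ttc26 (-0.91), with intervals that overlap. The thinned intervals are wider than counting error alone, so whether that of Ift22 includes 0 is not settled. Ttc26, whose product is also known as IFT56, had 15.5 CPM (14.5 to 16.6) in Control and 7.75 CPM (7.22 to 8.30) in MOF cKO, a change of -1.003 (-1.14 to -0.86). The intervals of both genes were far apart between the libraries.

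Ift74 forms with Ift81 the part of IFT-B that binds tubulin cargo, and the study shows it as an example. Its promoter held 30.5 CPM (29.1 to 32.0) in Control and 17.4 CPM (16.6 to 18.2) in MOF cKO, a change of -0.81 (-0.91 to -0.72) at the 5.27th percentile of all genes. Its partner Ift81 changed less, from 25.9 to 18.9 CPM, by -0.45 (-0.55 to -0.36), with an interval that did not overlap that of Ift74. In thinned cells the intervals overlapped, at -0.94 (-1.35 to -0.53) for Ift74 and -0.48 (-0.89 to -0.06) for Ift81. Ttc30b, one of the near-identical Ttc30 genes whose reads may be split between copies, changed by -0.72 (-0.85 to -0.58), and Hspb11, which shares its promoter region with Lrrc42, by -0.67 (-0.73 to -0.60). Ift88, long used as the genetic entry to cilium loss, was the least changed of the group in the full data. It held 11.0 CPM (10.1 to 11.9) in Control and 8.74 CPM (8.18 to 9.33) in MOF cKO, a change of -0.33 (-0.48 to -0.18). In thinned cells it had 78 and 84 cut sites and a change of -0.67 (-1.33 to 0.00), so its place in the group is uncertain. Ift27, Ift46 and Ift52 lay between, at -0.44, -0.39 and -0.48.

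IFT-B2, the peripheral part of IFT-B that meets kinesin-2, had a median of -0.43 (-0.02 against all genes). In cells thinned to 5000 cut sites it was at -0.16 against all genes, with members from -0.82 (Cluap1) to -0.28 (Ift57), and with only the strongest region per gene at -0.06. Cluap1 was its lowest member, with 27.2 CPM (25.8 to 28.5) in Control and 18.0 CPM (17.2 to 18.8) in MOF cKO, a change of -0.60 (-0.69 to -0.50) over a region shared with 1700037C18Rik. Its highest in the full data was Traf3ip1, whose product binds microtubules, with 28.6 CPM (27.2 to 29.97) and 22.7 CPM (21.7 to 23.6), a change of -0.33 (-0.43 to -0.24). Ift20 (-0.36), which has a Golgi pool, shared its region with Tnfaip1, and Ift80 (-0.54) shared its region with Smc4. Ift172 was at -0.45 and Ift57 at -0.41.

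IFT-A, which acts in return transport and in the entry of membrane receptors, had a median of -0.50 (-0.09 against all genes), with 5 of 6 members below the all-gene median. Wdr19 fell most, from 57.8 CPM (55.9 to 59.8) to 38.2 CPM (37.0 to 39.4), a change of -0.60 (-0.66 to -0.53). Ift43 held 15.5 CPM (14.5 to 16.6) in Control and 12.7 CPM (12.1 to 13.4) in MOF cKO, a change of -0.29 (-0.41 to -0.16), and was the only IFT-A gene above the all-gene median in the full data. Ift122, another example of the study, had 73.6 CPM (71.4 to 75.8) and 52.0 CPM (50.6 to 53.4), a change of -0.50 (-0.56 to -0.44). In thinned cells Ift122 was at -0.33 (-0.57 to -0.08), an interval that holds the all-gene median of -0.39 in those cells. Its region at chr6:115852983-115853911 also holds the start of Mbd4, and Ift140 shares its region with Cramp1l, so the cut sites of each pair cannot be told apart. Ttc21b (-0.53), Wdr35 (-0.51) and Ift140 (-0.47) lay close to Ift122.

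The BBSome genes, with Arl6 counted among them, had the widest range. Their median was -0.44 (-0.03 against all genes), and 3 of 9 were at least 1.5-fold lower, beside 18.5% of all genes. Against all genes the median was at -0.07 without genes whose region also serves another gene and at -0.06 in thinned cells. It was at -0.02 without the cells of the 5% highest doublet scores. Bbs1, which contacts the GTPase Arl6 when the complex is recruited to membranes, was at 6.30 CPM (5.67 to 6.98) in Control and 2.86 CPM (2.54 to 3.21) in MOF cKO. Its change of -1.14 (-1.36 to -0.91), at the 1.51st percentile of all genes, was the lowest of all 39 members in the full data. In cells thinned to 5000 cut sites Dync2li1 (-1.22, -1.81 to -0.64) and Ttc8 (-1.05, -1.59 to -0.51) lay below Bbs1 (-1.01, -1.96 to -0.08, on 46 and 39 cut sites), with intervals that overlap widely. Ttc8, the BBS8 subunit, went from 19.7 to 10.2 CPM, by -0.95 (-1.07 to -0.83), and Bbs4 from 21.9 to 14.2 CPM, by -0.63 (-0.74 to -0.52).

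Bbs5, a subunit that binds phosphoinositides, was the exception among the 39 with this scaling. Its promoter, at chr2:69646696-69647612, held 20.6 CPM (19.5 to 21.8) in Control and 21.1 CPM (20.3 to 22.0) in MOF cKO, so that the libraries overlapped and the change was 0.03 (-0.07 to 0.14), at the 86.8th percentile of all genes. Scaled to the cut sites in each library's own peaks it was at -0.11, and per cell at -0.05. Bbs7, which belongs to the core of the complex, was second highest in the group at -0.20 (-0.30 to -0.10). Bbs2 (-0.44), Bbs9 (-0.40), Bbip1 (-0.39, region shared with Shoc2) and Arl6 (-0.50) lay near the all-gene median.

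Dynein-2, the motor of return transport, had a median of -0.49 (-0.08 against all genes). With only the strongest region per gene it was at -0.00615 against all genes, and in thinned cells at -0.18. The strongest region of Dync2h1 was the one that also serves Dcun1d5 (-0.35), so that setting left out its other region (-0.82). Dync2li1, its light intermediate chain, held 17.8 CPM (16.7 to 18.9) in Control and 10.3 CPM (9.65 to 10.9) in MOF cKO, a change of -0.79 (-0.92 to -0.67). Wdr34, an intermediate chain, held 25.4 CPM (24.1 to 26.7) and 19.6 CPM (18.8 to 20.5), and its change of -0.37 (-0.47 to -0.27) was the smallest of the group in the full data. Wdr60, the other intermediate chain, changed by -0.49 (-0.61 to -0.37), which overlaps Wdr34. In thinned cells Wdr60 was at -0.36 (-0.89 to 0.18) and Wdr34 at -0.52 (-0.93 to -0.10), which also overlap. Dync2h1, the heavy chain, changed by -0.49 (-0.57 to -0.42) over its 2 regions.

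Kinesin-2 had a median of -0.44 (-0.02 against all genes), which was 0.00125 without the cells of the 5% highest doublet scores and -0.09 in thinned cells, so neither sign nor size of that distance was settled. Kif3a, a motor subunit of the heterotrimer, held 22.6 CPM (21.4 to 23.9) in Control and 14.2 CPM (13.4 to 14.9) in MOF cKO, a change of -0.68 (-0.79 to -0.57). Its partner Kif3b was at 14.4 and 11.3 CPM, a change of -0.35 (-0.48 to -0.22), and the accessory subunit Kifap3 at -0.52 (-0.59 to -0.44). Kif17, the homodimeric kinesin-2, held 42.5 CPM (40.8 to 44.2) and 39.2 CPM (38.0 to 40.4), a change of -0.12 (-0.19 to -0.05). With a median-of-ratios size factor Kif17 was at 0.04. Scaling to promoter cut sites moves every gene up by the same amount, and the 10 members nearest to 0 among the 38 lower ones, Ift43, Ift46, Ift88, Ift20, Traf3ip1, Bbs7, Bbip1, Wdr34, Kif3b and Kif17, are then above 0.

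Of the 39 members 35 had 1 shared region and 4 had 2, and the regions of a gene did not always move together. Dync2h1 changed by -0.82 (-0.95 to -0.69) at chr9:7176550-7177439 and by -0.35 (-0.43 to -0.26) at chr9:7184087-7184959, which also serves Dcun1d5. Both regions lie at annotated starts of Dync2h1. The main Ift57 region at chr16:49698714-49699614 went from 45.4 to 31.7 CPM, by -0.52 (-0.60 to -0.45), while a weak region at chr16:49709807-49710817, near a further annotated start, went from 0.725 to 3.08 CPM, by 2.09 (1.62 to 2.59). Ift46 likewise changed by -0.45 (-0.53 to -0.36) at chr9:44772425-44773390 and by 0.44 (0.10 to 0.79) at the weaker chr9:44775818-44776867. At Kif17 the region at chr4:138249884-138250851, shared with Sh2d5, changed by -0.03 (-0.14 to 0.08), and that at chr4:138261816-138262804 by -0.19 (-0.29 to -0.09). In all, 9 members shared a region with the start of another gene. Their median was -0.49, beside -0.48 for the other 30.

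The members were also set against genes of the same Control level, because the median change was nearer 0 at weak promoters over the genome. Genes below 10 CPM in Control epithelial-like cells had a median change of -0.15 (4084 genes), and the 2 members at that level, Bbs1 and Ift22, were at -1.14 and -1.11, both below the 25th percentile of such genes (-0.49, with the 75th at 0.27). From 10 to 20 CPM the 8 members had a median of -0.60, beside -0.37 for 2953 genes. From 20 to 30 CPM the medians were -0.45 and -0.43, from 30 to 50 CPM -0.48 and -0.45, and above 50 CPM -0.46 and -0.48. From 10 to 20 CPM 5 of the 8 members were below the median of their level, while Ift43, Ift88 and Kif3b were above it.

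**Figure D3:**
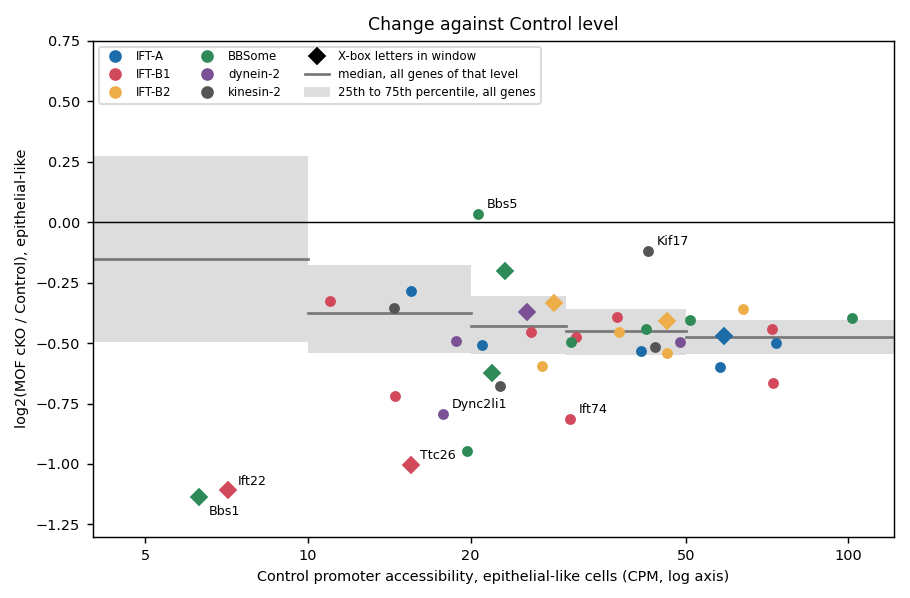
Change in epithelial-like cells against the Control level (CPM, log axis) of each gene, coloured by sub-complex, with diamonds for promoters that hold the X-box letters. Grey lines and bands give the median and the 25th to 75th percentile of all genes of each level (drawn from 4 CPM), and Bbs1, Ift22 and Ttc26 lie well below their band while Bbs5 and Kif17 lie above theirs.

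The 3 members that were at least 2-fold lower, Bbs1, Ift22 and Ttc26, all held the X-box letters shown above. In cells thinned to 5000 cut sites, however, Ift22 was at -0.85 and Ttc26 at -0.91, while Dync2li1, which was not searched, and Ttc8, which lacked the letters, were past 2-fold. The thinned intervals of these genes overlapped. Over all members, promoters with and without the letters had like medians, -0.47 (9 genes) and -0.48 (25 genes), and 4 and 6 of them were at least 1.5-fold lower. Ift74, whose promoter the study gives as bound by RFX2, counted among those without the letters. Bbs7, with 1 mismatch to the pattern, was among the least changed members. Over the other genes with a window the medians were -0.43 with the letters (488 genes) and -0.42 without them (11690 genes), and 20.1% and 18.3% were at least 1.5-fold lower.

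In fibroblast-like cells, a class in which Krt14-Cre is not thought to act, the pooled member level differed little between the libraries. Their summed level was 1536 CPM in Control and 1496 CPM in MOF cKO, a change of -0.04 (-0.06 to -0.02), and the median change was -0.05, beside -0.03 for all 15751 genes. Lower were 26 of 39 members, beside 58.5% of all genes, none was at least 1.5-fold lower, beside 2.50%, and none at least 1.5-fold higher, beside 4.48%. The interval lay wholly below 0 for 4 members (17.9% of all genes) and wholly above 0 for 3 (10.3% of all genes), and included 0 for 32. These cells too lay unevenly over clusters, with 5 Control and 534 MOF cKO cells in cluster 6, 79 and 469 in cluster 4, 254 and 177 in cluster 7 and 320 and 74 in cluster 8. Within clusters the summed level differed in either direction beyond counting error, at 1627 CPM in Control and 1447 CPM in MOF cKO in cluster 4 and at 1546 and 1649 CPM in cluster 7, while cluster 8 was at 1511 and 1470 CPM with overlapping intervals. Scaled per cell, the member median was -0.33 and that of all genes -0.31.

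For the genes with the deepest epithelial losses the fibroblast intervals included 0, as they did for 32 of the 39 members. Ift22 held 13.9 and 14.7 CPM there, a change of 0.08 (-0.14 to 0.30), Ttc26 16.3 and 16.0 CPM, a change of -0.03 (-0.23 to 0.18), and Ift74 39.1 and 39.9 CPM, a change of 0.03 (-0.10 to 0.16). Bbs1 held 9.04 and 7.79 CPM, a change of -0.21 (-0.50 to 0.07). This was the lowest fibroblast change of the 39 members, on only 358 and 484 cut sites. Per cell these 4 genes were at -0.20, -0.31, -0.25 and -0.50. The epithelial change was below the fibroblast change, with an interval wholly below 0, for 37 of 39 members, where 70.2% of all genes were. The difference was -1.19 (-1.49 to -0.89) at Ift22 and -0.92 (-1.28 to -0.57) at Bbs1, and its interval included 0 for Bbs5 at -0.17 (-0.38 to 0.04) and Bbs7 at -0.14 (-0.31 to 0.02).

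The levels of the classes were close in Control and apart in MOF cKO. The median log2 ratio of epithelial-like over fibroblast-like level was -0.18 for the members and -0.17 for all genes in Control, and -0.64 and -0.56 in MOF cKO. Lower in epithelial-like cells, with an interval wholly below 0, were 25 of 39 members in Control (53.0% of all genes) and 36 in MOF cKO (75.8% of all genes). Ift22 was at -0.97 in Control and -2.16 in MOF cKO, whereas Bbs9 was at 0.20 and -0.07. In Control, Ift22 and Bbs7 (-0.74) were the members most weighted to fibroblast-like cells.

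Smaller classes gave coarser values. The mural-like cluster had 5 of 7 mural markers raised but also 5 of 9 fibroblast markers, and its 10 leading genes held no mural marker. The summed member level was 1790 CPM in 46 Control and 1796 CPM in 281 MOF cKO immune-like cells, a change of 0.00 (-0.07 to 0.08), 1790 and 1733 CPM in 19 and 69 mural-like cells, -0.05 (-0.16 to 0.06), and 1794 and 1576 CPM in 9 and 26 endothelial-like cells, -0.19 (-0.32 to -0.05). The median change of all genes in these classes was -0.01, -0.02 and -0.15, in the same order. That of the members was 0.01, 0.03 and -0.13. Within promoter cut sites the members' share lay between 0.347 and 0.372% in all 5 classes and both libraries, with the epithelial-like and endothelial-like MOF cKO cells both at 0.347%, the latter with a wide interval of 0.328 to 0.368%.

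Across the epithelial-like clusters the summed member level lay at 1361, 1402 and 1424 CPM in the 3 Control clusters with over 20 cells. The MOF cKO clusters 0, 2, 5 and 14 were at 951, 991, 1047 and 1139 CPM, all below the Control clusters. The 23 MOF cKO cells that fell in cluster 3, a mainly Control cluster, were at 1219 CPM (1137 to 1305). Cluster 15, with 69 MOF cKO cells of a median of 18727 cut sites, stood apart at 1464 CPM (1375 to 1558), with promoter regions at 43.4% of its cut sites, as against 27.7 to 34.9% in the other MOF cKO epithelial-like clusters. The part of depth in that value was not tested. The level thus differed between clusters of the same library beyond counting error.

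**Figure D4:**
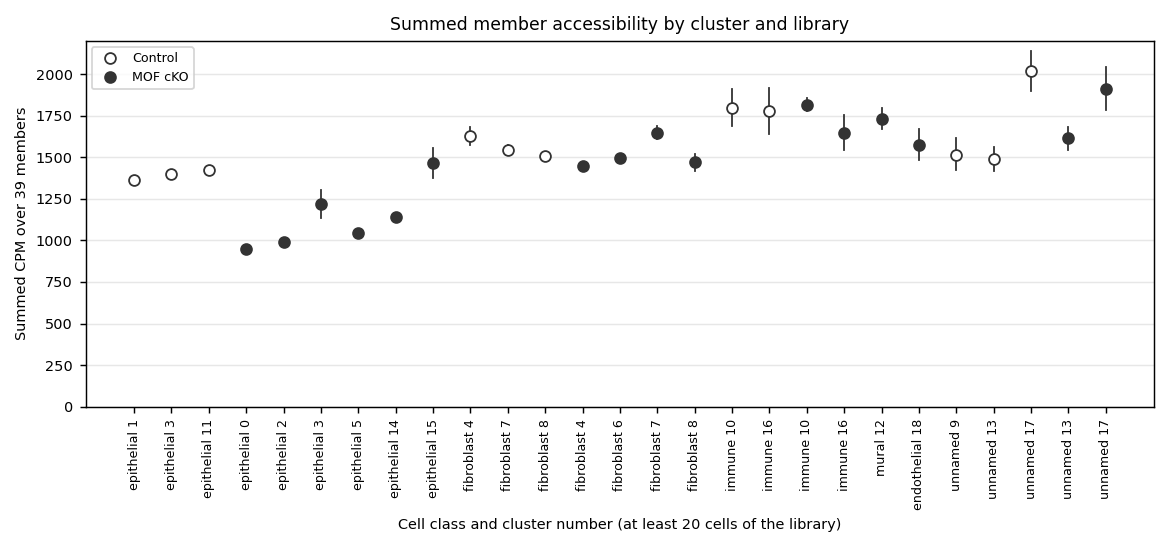
Summed CPM over the 39 genes for each cluster and library with at least 20 cells, with 95% Poisson intervals, grouped by cell class. Among epithelial-like clusters the Control points lie between 1361 and 1424 CPM and the MOF cKO points between 951 and 1464 CPM.

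Regions inside the genes, over 2000 bp from any start site, gave no uniform direction. There were 145 such shared regions in 31 member genes. Their summed change in epithelial-like cells was 0.29, but the median over the regions had the opposite sign, -0.22, beside -0.10 over all 165639 distal regions. By gene, 14 genes were lower and 17 higher, with intervals wholly below 0 for 11 and wholly above 0 for 11. Of all 9634 genes with body regions 56.4% were higher, and the interval lay wholly below 0 for 31.1% and wholly above 0 for 45.7%. The gene-body change was above the promoter change in 24 of 31 members (77.4%), near the 76.1% of all such genes. Wdr60 was at 1.44 (1.29 to 1.59) over 4 body regions and at -0.49 at its promoter, Kif17 at 1.09 (0.99 to 1.19) and -0.12, Ift88 at 0.85 (0.71 to 1.01) and -0.33, and Dync2h1 at 0.73 (0.57 to 0.89) and -0.49. Bbip1 went the other way, with -1.89 (-2.36 to -1.43) at 1 body region and -0.39 at its promoter, as did Ift172, with -1.54 (-2.33 to -0.78) and -0.45. In fibroblast-like cells the summed change of the body regions was 0.01.

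**Figure D5:**
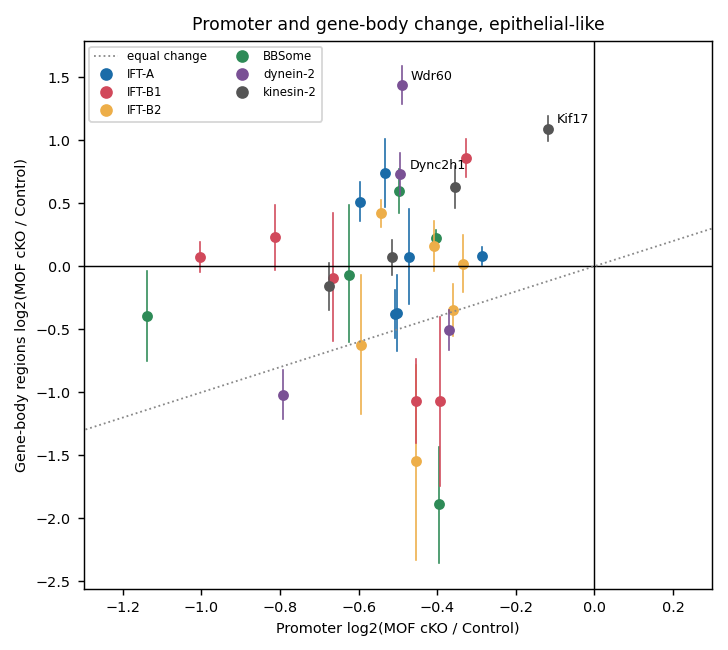
Change of gene-body regions against change of the promoter in epithelial-like cells, 1 point per gene for 31 genes, with 95% counting intervals of the gene-body value. The dotted line marks equal change, and 24 points lie above it.

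Other cilium genes moved much as the members did. Genes associated with the transport machinery (23 of 25 symbols with a region, among them dynein light chains, BBSome chaperonins and regulators of cargo release) had a median change of -0.49 in epithelial-like cells, with 8 of 23 at least 1.5-fold lower, beside 18.5% of all genes. The lowest were Bbs10, a chaperonin-like factor needed to assemble the BBSome, at -0.78, and Dynll1, a dynein light chain, at -0.70. Transition zone genes (21 of 22 symbols), which form the gate at the base of the cilium, also had a median of -0.49, with 5 of 21 at least 1.5-fold lower, beside the same 18.5%, among them Cc2d2a at -0.67, while Anks6 was at -0.10. Each median lay -0.08 from that of all genes in the full data, as did that of the 39 members. In fibroblast-like cells the medians were -0.08 and -0.05.

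The promoter of Kat8 itself held 48.8 CPM in Control and 36.7 CPM in MOF cKO epithelial-like cells, a change of -0.41 (-0.48 to -0.34). That value does not check the deletion, because a promoter count does not show whether the floxed exons were removed.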

How the data were processed

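Single-cell ATAC libraries of sorted mouse back skin cells (1 Control, 1 MOF cKO) were analysed from the deposited matrices. Per the file headers, the authors made the raw counts of Tn5 cut sites per peak and barcode with Cell Ranger ATAC 2.0.0. The submitters' processing notes name mm10. Both peak lists were called per library, and 88.8% and 91.6% of the entries are even, since both ends of a fragment count. The counting error was for this reason taken from fragments (2 cut sites each). Regions holding a peak of both libraries (214119) were kept, and promoters were those within 500 bp of a protein-coding start (GENCODE vM21). Within a region each library was counted over its own peaks, whose widths can differ, and changes were not corrected for width. Barcodes under 1000 cut sites (60 of Control) were left out.

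Cells were clustered on 50000 autosomal regions (TF-IDF, 28 components, 20 neighbours, Leiden at resolution 1, leidenalg 0.10.2) and named from marker promoters, where at least 3 markers had to be raised 2-fold. A cluster stayed unnamed if it was far shallower than its sample and its 10 leading genes held no marker of the class (cluster 9, at a median of 2511 cut sites), or if they held more markers of another class. A doublet score was taken from artificial pairs among 50 neighbours, and no cell was removed by it. Counts were summed per class and library and scaled to cut sites in shared regions. Genes needed 20 cut sites over both libraries. Intervals are exact (Poisson for levels, conditional binomial for changes, SciPy 1.17.1), and normal for differences between classes. The gene rule named, within each sub-complex, the lowest and highest epithelial change among members with at least 200 cut sites, plus Ift74, Wdr34, Ift122 and Kat8, and other members are given as values. The calculation was checked on simulated data. Members and lists were chosen with earlier results of these data known. Alternatives changed the scaling, window, depth, cell filters and peak set. Thinning was a single random draw of cut sites from each cell. Its intervals still took 2 cut sites as a fragment, although the draw can part them, so they are wider than counting error alone.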

Additional observations from a re-analysis of the deposited data

Results flagged for a closer look

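Ift88 and Kif17 were lower in MOF cKO in epithelial-like and higher in fibroblast-like cells, with both intervals on their side of 0. For Ift88 the changes were -0.33 (-0.48 to -0.18) and 0.27 (0.08 to 0.46), a difference of -0.59, and for Kif17 they were -0.12 (-0.19 to -0.05) and 0.14 (0.01 to 0.27), a difference of -0.26. The opposite directions held with this scaling and with that to own-peak sites, and not with every other. Per cell the fibroblast-like changes were -0.01 for Ift88 and -0.14 for Kif17, and within promoter sites the epithelial-like changes were 0.07 and 0.28. With a median-of-ratios size factor the epithelial-like change of Kif17 was 0.04, and in thinned cells it was 0.09 (-0.22 to 0.40). With 1 library per genotype the difference was not tested against replicates. Each library was counted over its own peaks, and the Ift88 peak was 894 bp wide in Control and 995 bp in MOF cKO. At Kif17 the widths were 880 and 967 bp in the region shared with Sh2d5, and 943 and 932 bp in the other. The part of width in these changes was not tested.

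A region was called near a further start site of Ift27 in the MOF cKO library but not in Control, at chr15:78171452-78172236, where 347 cut sites gave 1.68 CPM in epithelial-like cells. A like region of Ift81, at chr5:122603629-122604467, held 99 cut sites or 0.478 CPM. Neither entered the main comparison, since the Control matrix has no row for them, and a region that was not called is not a measured 0. The alternative with the peaks of either list did count them, with the uncalled Control side taken as 0.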

How the results depend on the processing

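No paired analysis was possible because each genotype has 1 library. Scaling moved the member median in epithelial-like cells from -0.49 to -0.64 with the sites of each library's own peaks, -0.34 with a median-of-ratios size factor, -0.58 per cell and -0.0936 within promoter sites, and the count of members at least 1.5-fold lower from 12 to 26, 6, 18 and 3, beside 45.1%, 7.47%, 33.1% and 2.64% of all genes. The median of all genes moved with it, to -0.56, -0.26, -0.50 and -0.02. The fibroblast-like median was -0.33 per cell, against -0.05. Kif17 turned to 0.0367 with the size factor, to 0.28 within promoter sites and to 0.0859 (-0.22 to 0.40) with cells thinned to 5000 sites. Bbs5 was at -0.11 with own-peak sites and -0.0537 per cell. Within promoter sites Ift43 was at 0.11, Ift88 at 0.0693, Traf3ip1 at 0.0630 and Wdr34 at 0.0273, and thinning put Ift43 at 0.0463 (-0.49 to 0.60). Thinning, which left out 13 Control and 37 MOF cKO epithelial-like cells, put IFT-B1 at -0.24, IFT-B2 at -0.16 and dynein-2 at -0.18 against all genes, as compared with -0.16, -0.02 and -0.08. Why was not tested. The X-box letters were in 3 of 34 members with 1 mismatch, beside 0.835% of all genes with a window. With 500 bp on each side of the start they were in 15, beside 1225 of all 17492 genes. Of the recomputed summary values 140 stayed within set bounds, and 13, all given above, did not. For counts the bound was 1.5 times, and for medians it was the median of the single genes' interval bounds. The latter is not the counting error of a median. Distances from the all-gene median cannot move with the scaling, so their staying there says nothing. Leaving out clusters of high doublet score, keeping the strongest region per gene and leaving out genes with a shared region were chosen after seeing the data, and gave member medians of -0.50, -0.49 and -0.48. Depth limited the weakest promoters most, since Bbs1 and Ift22 have intervals about 0.45 wide on the log2 scale and the best-covered member 0.10.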

Other observations

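Cells in clusters that were left unnamed also had cut sites at the member promoters. The 304 Control cells of cluster 9, with a median of 2511 cut sites in that cluster and 9 of 13 epithelial markers raised, gave a summed member level of 1516 CPM (1423 to 1615), where the named Control epithelial-like clusters 1, 3 and 11 were at 1361 (1347 to 1375), 1402 (1387 to 1418) and 1424 CPM (1399 to 1449), the last with an interval that overlaps that of cluster 9. Cluster 13 was at 1489 CPM in 30 Control and 1615 CPM in 54 MOF cKO cells. Cluster 17 held the highest values of all clusters, 2020 CPM (1902 to 2143) in 24 Control and 1912 CPM (1785 to 2045) in 20 MOF cKO cells.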
